A study of Mus musculus with 6 samples.

Results

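The angiopoietin, VEGF and PDGF genes were followed in 2D-MAOs, which are mouse airway epithelial organoids grown as a flat layer, with and without TGF-β1. The set held 10 genes: the angiopoietins Angpt1 and Angpt2, the angiopoietin-like genes Angptl2 and Angptl4, the VEGF family genes Vegfa, Vegfc and Pgf, and the PDGF genes Pdgfa, Pdgfb and Pdgfc. They were taken by name, through the RefSeq accessions of the array probes, with earlier results of these data known. All 10 were on the array, among 22910 named genes, and were read by 15 probes. Of the 10 genes, 9 were bright enough to be tested among 14345 genes.

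The organoids came from lung airway cells of C57BL/6 mice and were plated on type I collagen in 6-well plates. From day 3, the 3 TGF-β1 cultures and the 3 control cultures were kept in MAO medium lacking noggin, which blocks BMP ligands, and A83-01, which blocks the TGF-β type I receptor, so that controls shared this change. The TGF-β1 cultures received TGF-β1 from day 3, at a concentration that the array methods do not name, and all cultures were collected on day 7. Total RNA of each culture was measured on 1 single-dye Agilent array. The submitters call the cultures of a group biological replicates. No source states whether they came from separate animals, and the p-values measure only the spread between these cultures.

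These secreted factors are textbook signals from epithelium to vessels and stroma. VEGFs act through the FLT and KDR receptor tyrosine kinases with neuropilins as co-receptors, angiopoietins act through TEK on endothelium, and PDGFs act through PDGFRA and PDGFRB on fibroblasts, smooth muscle cells and pericytes. In the lung, epithelial VEGF maintains the capillary bed and epithelial PDGF-A is needed for alveolar myofibroblasts. TGF-β1 signals through Smad proteins and is a well-known inducer of matrix genes in epithelium and stroma.

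Expression is given as normalised log2 signal, on which 1 unit is a doubling of brightness after the arrays were brought to a common distribution of signals. Brightness depends on the probe, so a level was compared between arrays and never between genes. A probe counted as well above background where the scanner software marked it so. A gene was called changed at a Benjamini-Hochberg adjusted p under 0.05 in limma, taken over the 14345 genes. Groups did not overlap where all 3 arrays of one lay above all 3 of the other.

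Of the 9 members tested, 1 was higher with TGF-β1 (Pdgfb) and 1 was lower (Angpt1). Angpt1 entered the test only through the 3 control arrays, since it was well above background on no TGF-β1 array, and its call is given as a description. Over all genes tested, 2.04% were called, with 1.63% higher and 0.404% lower. Both calls were also over 2-fold in fitted size, as were 1.19% of all genes among the higher and 0.188% among the lower. At an unadjusted p under 0.05, 5 of the 9 members passed, against 22.2% of all genes. The groups did not overlap for 5 members, with Angptl4, Pdgfa, Pdgfb and Pdgfc higher and Angpt1 lower, against 26.4% of all genes. The median log2 fold change was 0.10 over the members and -0.03 over all genes. Vegfa, Vegfc, Pgf and Angpt2 overlapped between the groups, and Angptl2 could not be tested.

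TGF-β1 replicate 3 stood apart from the other arrays of its group. Over the genes tested, the Euclidean distance of its normalised log2 signals was 54.4 to control 3, against 61.1 and 62.3 to TGF-β1 replicates 1 and 2. With this array left out, 15.4% of all genes were called, and 4 members were higher (Angptl4, Pdgfa, Pdgfb and Pdgfc, against 9.08% of all genes) and 1 was lower (Angpt1, against 6.27%). All 6 arrays lay on 1 slide with 1 scan time, and the replicate 3 arrays of both groups were those in slide row 2. Between 55.0% and 59.0% of probes were well above background on each array, and no transcript spot was saturated. RNA came from whole cultures, so that fewer cells of a type and less RNA per cell cannot be told apart.

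**Figure D1:**
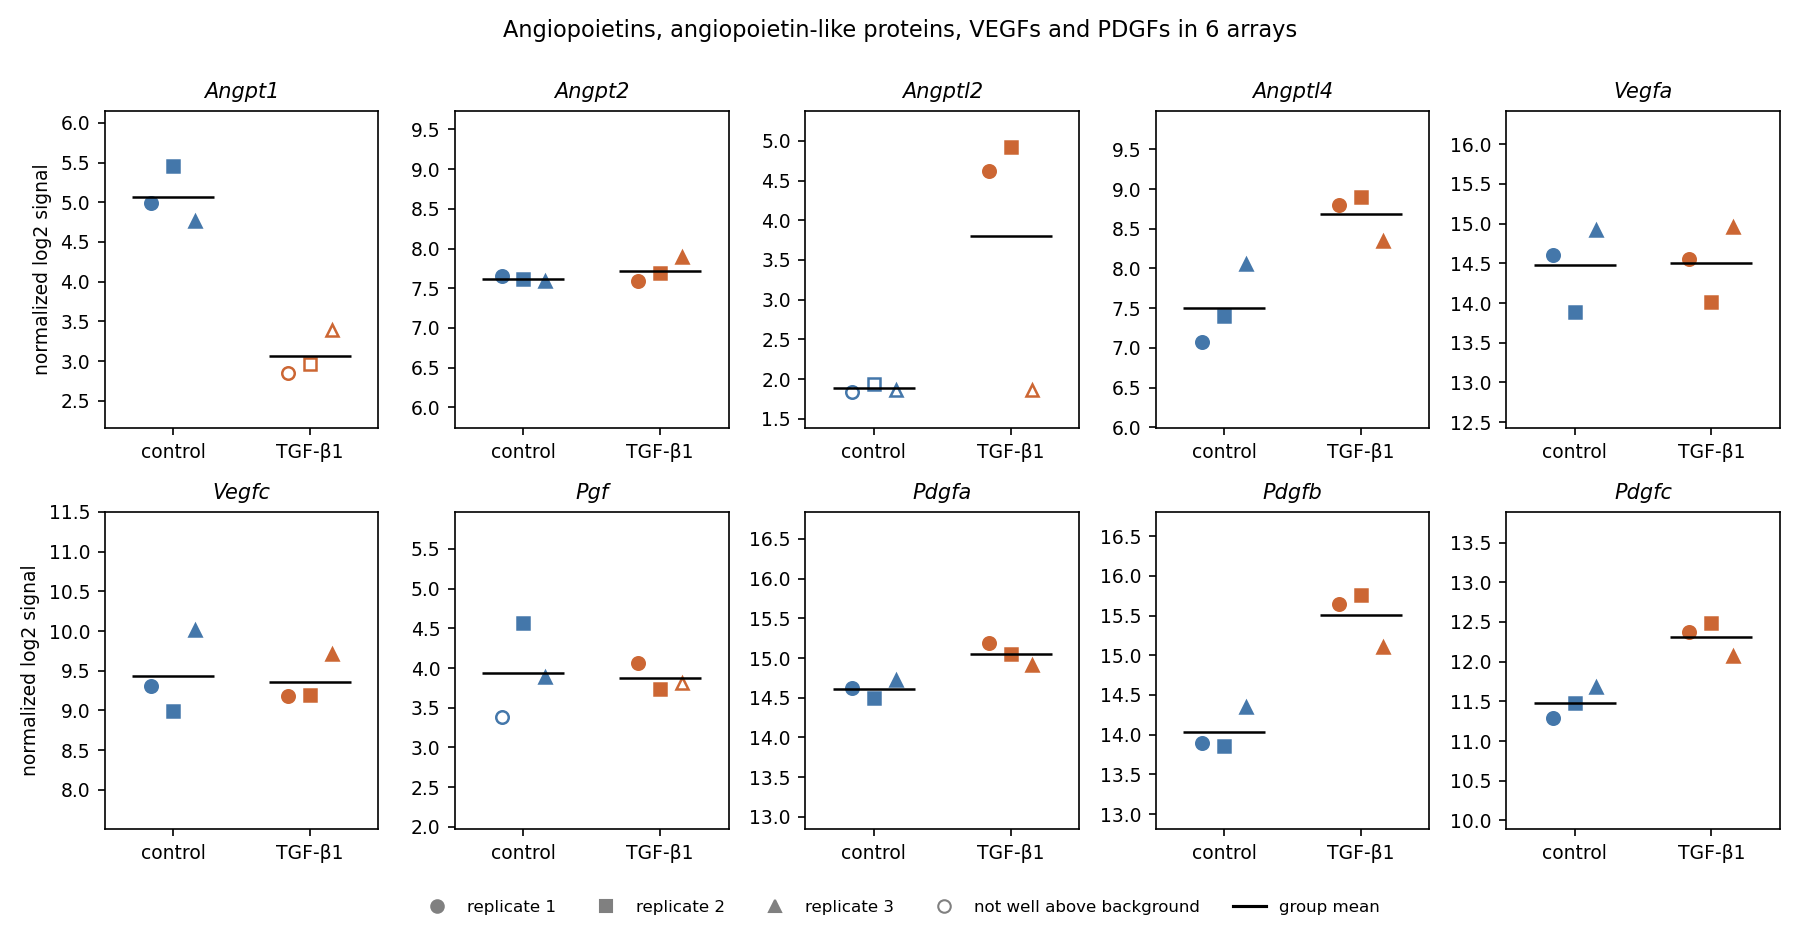
Normalised log2 signal (y axis, 1 panel a gene) of the 10 members in the 3 control and 3 TGF-β1 arrays, with a marker for each replicate and a line at each group mean; open markers are arrays on which the probe was not well above background. The Pdgfb panel shows all 3 TGF-β1 arrays (15.10 to 15.76) above all 3 controls (13.86 to 14.35), while the Vegfa panel shows the groups lying over each other.

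The RefSeq promoter table for the mouse assembly GRCm38.p6 held windows for 6 of the 10 members. Angpt1, Angpt2, Angptl4 and Pdgfb have no entry. Of the windows, the 250 bases before the start of Pdgfc and of Vegfa are shown, as one member whose groups did not overlap and one whose groups did, with the Smad box letters CAGAC or GTCTG in capitals, 5′ to 3′ on the strand of the gene. The Pdgfc bases lie at chr3:81036166-81036415 on the plus strand, and the Vegfa bases at chr17:46032378-46032627 on the minus strand.
Pdgfc: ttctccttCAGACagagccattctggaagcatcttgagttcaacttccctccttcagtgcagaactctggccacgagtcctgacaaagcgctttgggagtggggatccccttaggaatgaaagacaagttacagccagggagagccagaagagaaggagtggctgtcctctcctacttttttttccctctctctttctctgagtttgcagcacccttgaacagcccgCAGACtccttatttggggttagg
Vegfa: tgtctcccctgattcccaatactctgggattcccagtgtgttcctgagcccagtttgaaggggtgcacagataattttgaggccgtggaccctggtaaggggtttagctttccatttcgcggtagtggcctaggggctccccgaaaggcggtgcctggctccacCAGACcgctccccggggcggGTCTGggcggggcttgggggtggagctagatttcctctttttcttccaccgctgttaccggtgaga
The boxes begin 242 and 23 bases before the start of Pdgfc, and 86 and 66 bases before that of Vegfa. Such letters were common, since 42.2% of the 32851 windows of this length held CAGAC or its reverse complement GTCTG. The AP-1 letters TGACTCA or TGAGTCA, present in 4.5% of all windows, were in none of the windows of the 6 members. The hypoxia response core ACGTG or CACGT, present in 16.6% of all windows, was found 211 bases before a second Vegfa start and in no other member window. The window of that second start, chr17:46025164-46025413, lies downstream of the Vegfa start shown. It also held a Smad box, 102 bases before the second start. Both windows of Pdgfa and those of Vegfc and Angptl2 held none of these letters, and 1 of the 2 windows of Pgf held a Smad box. These matches describe the sequence only.

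Of the PDGF genes, Pdgfb, the B chain that signals to vascular pericytes, was the member called among those well above background in both groups. Its signals were 13.90, 13.86 and 14.35 in the controls and 15.64, 15.76 and 15.10 with TGF-β1. The groups did not overlap, and TGF-β1 replicate 3 was the array nearest to the controls. Pdgfb was higher by 1.47 on the log2 scale, or 2.77-fold (SE 0.22, limma, adjusted p = 0.0255). Without TGF-β1 replicate 3 the difference was 1.67 (adjusted p = 0.0064). The call was lost without control 1 (1.40, adjusted p = 0.105), control 2 (1.38, 0.110), TGF-β1 replicate 1 (1.40, 0.120) or TGF-β1 replicate 2 (1.34, 0.105), where the size changed little.

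Pdgfc, which encodes a ligand that is cut extracellularly before it can bind the alpha receptor, had signals of 11.29, 11.48 and 11.67 in the controls and 12.37, 12.49 and 12.08 with TGF-β1. Again no control reached the lowest TGF-β1 array, which was replicate 3. The difference of 0.83, or 1.78-fold, did not pass the threshold (SE 0.16, limma, adjusted p = 0.0543), and it passed without that array (0.95, adjusted p = 0.0149).

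Pdgfa, the A chain, was read by 2 probes. The brighter one gave 14.62, 14.50 and 14.72 in the controls and 15.19, 15.05 and 14.91 with TGF-β1, and the other gave 12.27, 12.18 and 12.18 against 12.74, 12.68 and 12.35. At both probes the groups did not overlap and TGF-β1 replicate 3 was the lowest of its group. The difference of 0.44 at the brighter probe did not pass (SE 0.12, limma, adjusted p = 0.124), passed without TGF-β1 replicate 3 (0.51, adjusted p = 0.0419), and was 0.18 (adjusted p = 0.329) when arrays were scaled to their 75th percentile in place of quantiles. The PDGF genes thus had higher TGF-β1 means throughout, by 0.44 to 1.47 on the log2 scale, with 1 of 3 called. Pdgfd, the remaining family gene, which was not a member, lay at 7.45 to 7.73 in the controls and 7.80 to 8.09 with TGF-β1 (difference 0.42, adjusted p = 0.154).

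Of the angiopoietins, Angpt1, the agonist of TEK that stabilises vessels, was the member called lower. Its single probe gave 4.99, 5.46 and 4.76 in the controls and 2.85, 2.97 and 3.39 with TGF-β1. It was well above background on the 3 control arrays and on none of the TGF-β1 arrays, so that the TGF-β1 level is a bound. For a bound, each TGF-β1 signal was raised to the dimmest signal well above background on its array, where that was higher. On these terms Angpt1 was at least 2.55-fold lower in the group means. The bound was 2.30-fold with scaling to the 75th percentile and 2.22-fold to 2.87-fold with an array left out. Limma on the measured signals gave a difference of -2.0 (SE 0.22, adjusted p = 0.0119). Because the probe passed the filter on brightness only through the group in which it was high, this test is not independent of the filter: the adjusted p was 0.0639 with no filter, and Angpt1 was not tested where all 6 arrays had to be well above background. The probe was dim in all cultures. Its raw spot was 1.5 to 2.13 times its local background in the controls and 1.18 to 1.37 times with TGF-β1. With background corrected by the normexp method, here with an offset of 50, the difference was -0.47 (adjusted p = 0.0756), and the call was also lost without control 1 (-2.04, 0.0520), TGF-β1 replicate 1 (-1.89, 0.0552) or TGF-β1 replicate 2 (-1.95, 0.0614).

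Angpt2, which can oppose Angpt1 at TEK, gave 7.66, 7.61 and 7.59 in the controls and 7.59, 7.69 and 7.89 with TGF-β1, well above background on every array. The groups overlapped, and the difference was 0.10 with a 95% interval from -0.17 to 0.38 (limma, adjusted p = 0.614).

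Angptl4, an inhibitor of lipoprotein lipase that is also linked to vessel permeability, had signals of 7.07, 7.40 and 8.05 in the controls and 8.79, 8.90 and 8.34 with TGF-β1. The groups did not overlap, with control 3 and TGF-β1 replicate 3 nearest to each other. The difference of 1.17, or 2.25-fold, did not pass (SE 0.27, limma, adjusted p = 0.0902). It passed without TGF-β1 replicate 3 (1.34, adjusted p = 0.0336) and without control 3 (1.45, adjusted p = 0.0421).

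Angptl2, a secreted factor linked to inflammation, was well above background only on TGF-β1 replicates 1 and 2, and so was not among the genes tested. Its signals were 1.84, 1.94 and 1.86 in the controls and 4.62, 4.92 and 1.86 with TGF-β1, where replicate 3 lay at the level of the controls. With all genes tested whatever their brightness, the difference was 1.92 with an SE of 0.87 (limma, adjusted p = 0.361). No fold is given, because the TGF-β1 mean did not exceed the level at which control probes become well above background.

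Vegfa, the main endothelial growth factor, was read by 4 probes, of which the brightest was tested and did not pass. The brightest gave 14.60, 13.89 and 14.93 in the controls and 14.55, 14.01 and 14.95 with TGF-β1. Replicates differed more than groups, with replicate 2 the lowest and replicate 3 the highest in each group. The difference was 0.03 with a 95% interval from -0.75 to 0.81 (limma, adjusted p = 0.962).

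The other Vegfa probes gave group differences of -0.004, 0.003 and 0.077. Replicate 2 was the lowest of its group at all 4 probes in both groups. The order of the 3 replicates of the brightest probe was the same in both groups. Vegfa was the 1 of 9 members with such an order, found for 21.2% of all genes and 11 of 24 hypoxia response genes.

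**Figure D2:**
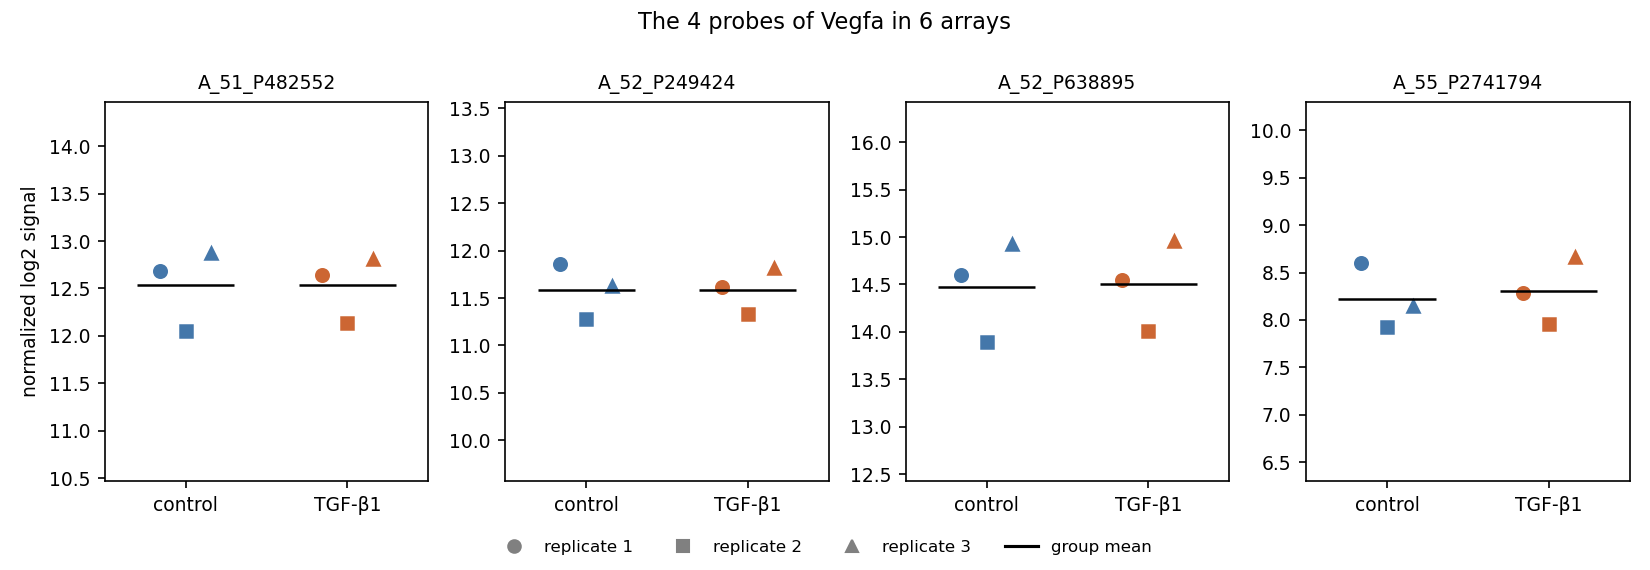
Normalised log2 signal (y axis, each panel spanning 4 units) of the 4 Vegfa probes on the 3 control and 3 TGF-β1 arrays, with a marker for each replicate and a line at each group mean. The group means of each probe lie within 0.08 of each other, and replicate 2 is the lowest of its group in every panel.

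Vegfc, the lymphatic growth factor, was read by 2 probes. The brighter one gave 9.30, 8.99 and 10.02 in the controls and 9.18, 9.19 and 9.71 with TGF-β1, and the other, which was dim, gave 4.81, 4.58 and 5.74 against 4.82, 4.01 and 5.13. The groups overlapped at both, and the difference at the brighter probe was -0.08, with a 95% interval from -0.75 to 0.60 (limma, adjusted p = 0.888). Pgf, placental growth factor, which binds FLT1, was dim and was well above background on 2 arrays of each group. Its signals of 3.38, 4.56 and 3.88 in the controls and 4.06, 3.74 and 3.81 with TGF-β1 overlapped (difference -0.07, interval -0.76 to 0.61, adjusted p = 0.898).

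**Figure D3:**
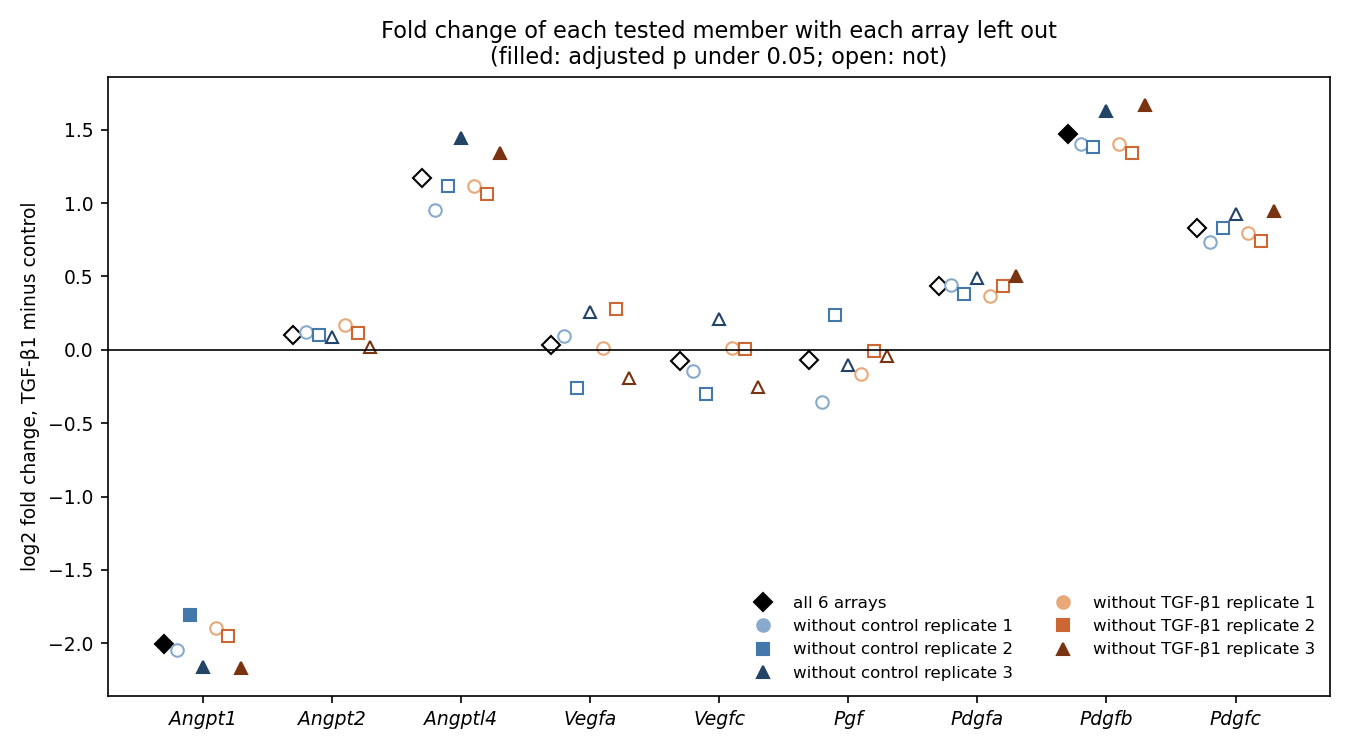
Log2 fold change (y axis, TGF-β1 minus control) of the 9 members tested, with all 6 arrays and with the arrays left out one at a time; filled markers passed an adjusted p under 0.05 in limma. Without TGF-β1 replicate 3 the Angptl4, Pdgfa, Pdgfb and Pdgfc markers are filled above 0 and the Angpt1 marker is filled below 0, while Vegfa, Vegfc, Pgf and Angpt2 have open markers throughout.

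The 2 slide rows each held both groups. Members whose groups did not overlap must differ in the same direction in each row, so that the shared direction adds nothing. In row 1, which held replicates 1 and 2, Pdgfb differed by 1.83 (limma, adjusted p = 0.0073), Pdgfc by 1.04 (0.0127), Pdgfa by 0.56 (0.0292) and Angptl4 by 1.61 (0.0100), against 26.8% of all genes called there. In row 2, which held 1 array of each group and so allowed no test, the differences were 0.75 for Pdgfb, 0.40 for Pdgfc, 0.20 for Pdgfa and 0.29 for Angptl4. Angpt1, tested only through the controls, differed by -2.32 in row 1 (limma, adjusted p = 0.0085) and by -1.37 in row 2. With the row as a term in the fit, Pdgfb (adjusted p = 0.0407) and Angpt1 (0.0194, with the same limit of the filter) were called and no other member was, against 2.75% of all genes.

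Of the 9 other genes of these families listed, 5 were tested and none was called, with 1 unadjusted p under 0.05 higher (Pdgfd) and 1 lower (Angptl8). Angptl8, a partner of the lipase-inhibiting angiopoietin-like proteins, lay at 6.35 to 6.47 in the controls and 5.73 to 6.19 with TGF-β1 (difference -0.48, limma, adjusted p = 0.135), and passed without TGF-β1 replicate 3 (-0.61, 0.0253). Angptl6 differed by -0.22 (adjusted p = 0.588), Vegfb by -0.36 (0.286) and Vegfd by 0.10 (0.692), and each overlapped between the groups. Angptl1 and Angptl7 were well above background on no array, and Angpt4 on 2 TGF-β1 arrays only.

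Of the 11 receptors and co-receptors, 6 were tested and 2 were called, both higher. Flt1, the receptor of VEGF-A and of placental growth factor, gave 5.11, 5.40 and 5.11 in the controls and 6.82, 6.97 and 6.99 with TGF-β1. Here TGF-β1 replicate 3 was the highest array and not the one nearest to the controls. Flt1 was higher by 1.72, or 3.30-fold (SE 0.12, limma, adjusted p = 0.00316), and passed with any single array left out (1.67 to 1.82), while normexp correction gave 0.79 (adjusted p = 0.00634).

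Pdgfrl, which encodes a secreted protein resembling the outer part of the PDGF receptors, gave 6.19, 6.15 and 5.48 in the controls and 8.48, 8.03 and 8.07 with TGF-β1. The groups were far apart, and the difference of 2.26, or 4.77-fold, passed with all arrays (SE 0.23, limma, adjusted p = 0.00847) and with any single array left out (2.02 to 2.38). Normexp correction gave 1.49 (adjusted p = 0.00154).

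Nrp1, the neuropilin that binds VEGF-A, was at 11.28, 11.37 and 11.52 in the controls and 12.41, 12.52 and 11.55 with TGF-β1. TGF-β1 replicate 3 lay just above the highest control, and the difference of 0.77 was not called (limma, adjusted p = 0.165) with all arrays and was called without that array (1.07, 0.0076). Its 2 other probes differed by 0.46 and 0.48, and at both the groups overlapped, with TGF-β1 replicate 3 within or below the range of the controls. Nrp2 (-0.03, adjusted p = 0.857), Flt4, the receptor of VEGF-C (0.07, 0.789), and Pdgfra (0.21, 0.484) overlapped between the groups. Tek, Tie1, Kdr, Pdgfrb and Pirb were well above background on no array. They include the angiopoietin receptor, the main endothelial VEGF receptor and the beta receptor of the PDGFs. Pdgfra, the alpha receptor of the PDGFs, was well above background on every array.

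**Figure D4:**
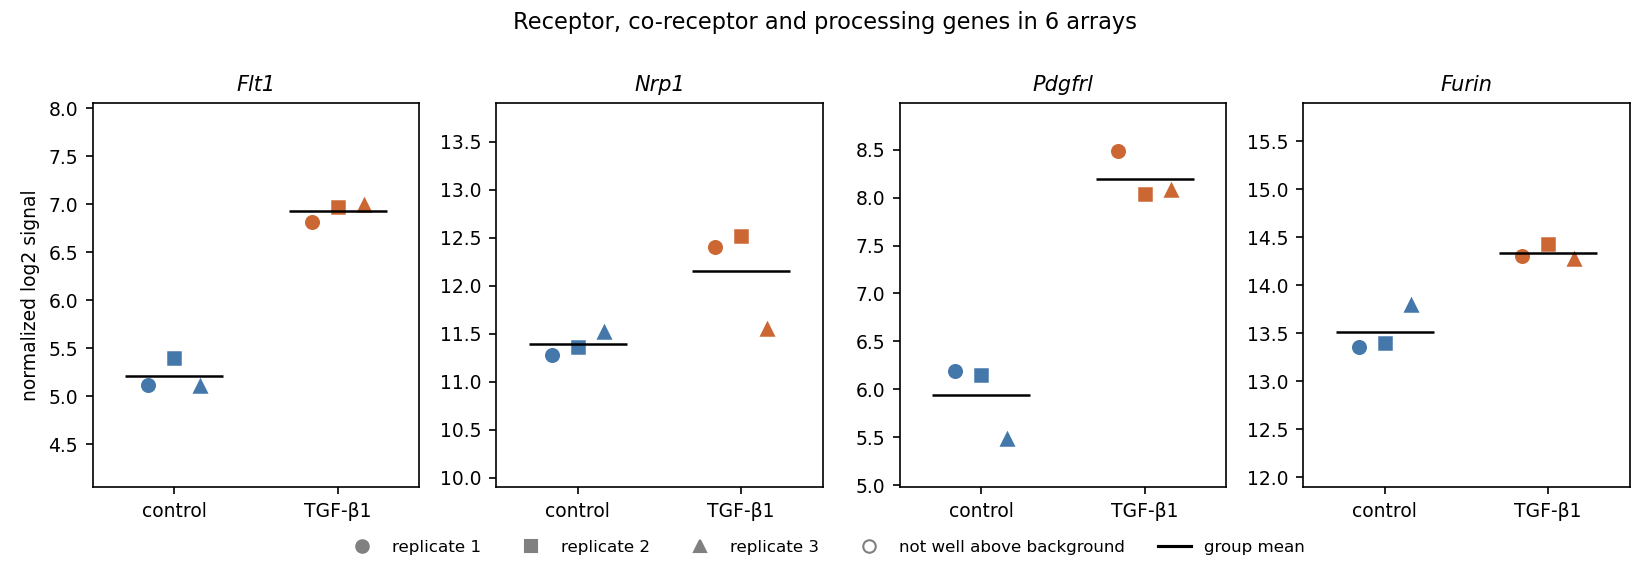
Normalised log2 signal (y axis, each panel spanning 4 units) of Flt1, Nrp1, Pdgfrl and Furin on the 3 control and 3 TGF-β1 arrays, with a marker for each replicate and a line at each group mean. For Flt1 the TGF-β1 arrays lie at 6.82 to 6.99 against 5.11 to 5.40 in the controls, whereas for Nrp1 TGF-β1 replicate 3 (11.55) lies beside the highest control (11.52).

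Among 7 genes that process these ligands, 6 were tested and 1 was called. Furin, a convertase that cuts the PDGF-A, PDGF-B and VEGF-C precursors, gave 13.36, 13.39 and 13.80 in the controls and 14.31, 14.43 and 14.27 with TGF-β1. It was higher by 0.82, or 1.76-fold (SE 0.15, limma, adjusted p = 0.0475). The call was lost with scaling to the 75th percentile (0.61, adjusted p = 0.0833) and without control 1, control 2, TGF-β1 replicate 1 or TGF-β1 replicate 2 (0.74 to 0.83, adjusted p of 0.166 to 0.178).

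Pcsk6, a related convertase, differed by 0.70 without overlap (adjusted p = 0.0572), and Plau, the urokinase protease, by 1.09 with overlap (0.245). Ccbe1, a cofactor of VEGF-C cleavage, differed by 0.78 (0.468). The median difference over the 6 genes was 0.74.

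**Figure D5:**
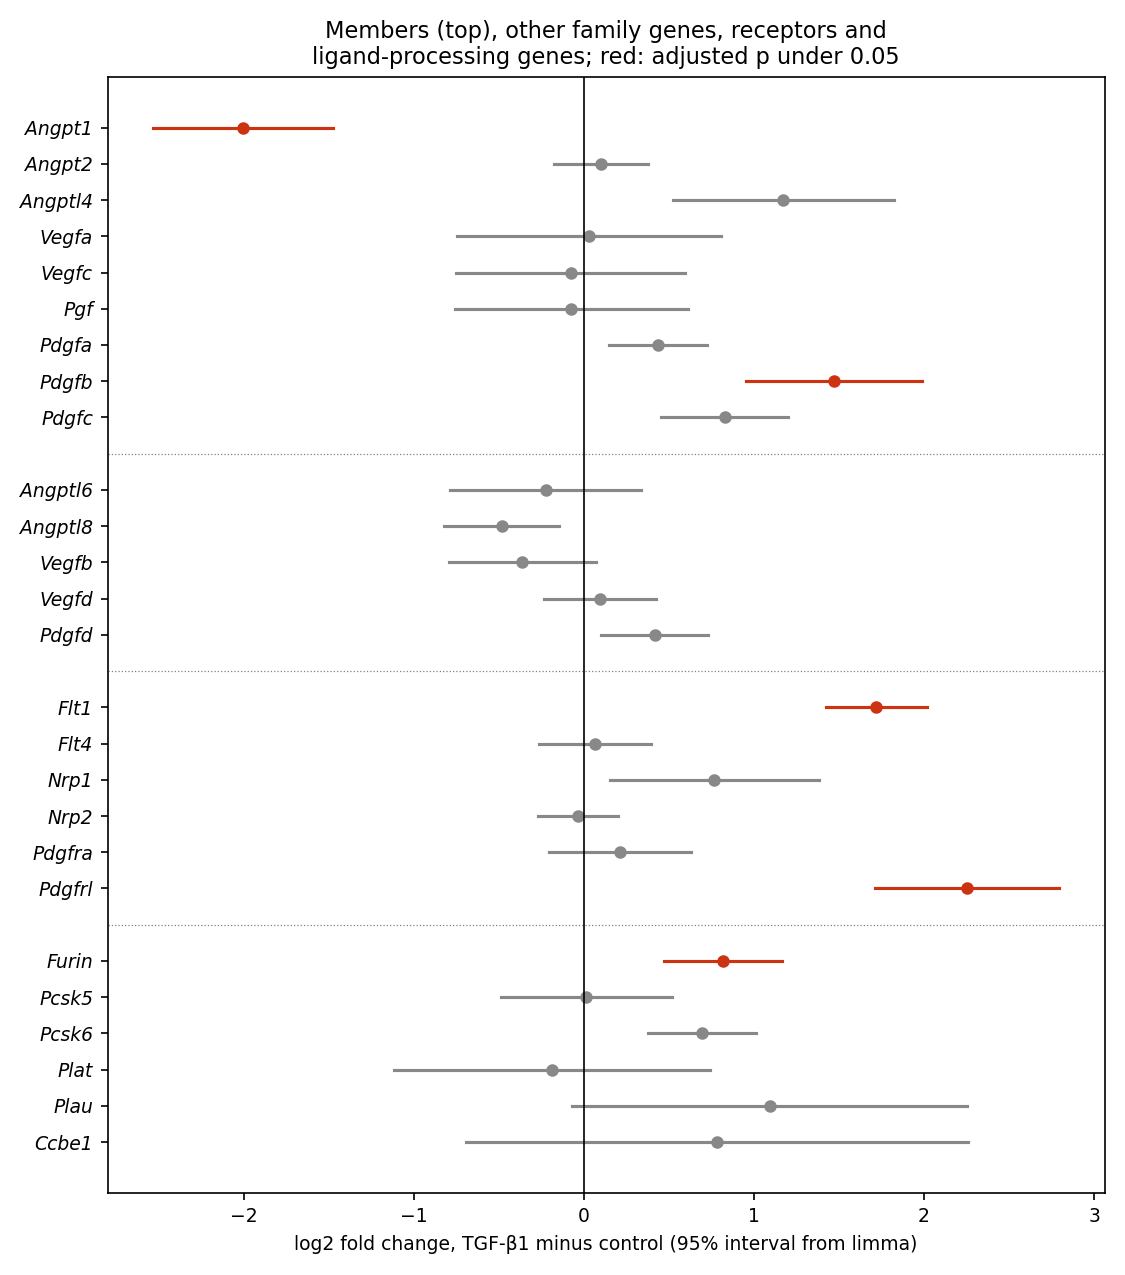
Log2 fold change with its 95% interval from limma (x axis, TGF-β1 minus control) of the tested members, other family genes, receptors and ligand-processing genes (y axis), with genes at an adjusted p under 0.05 in red. Angpt1 lies at -2.0, and Pdgfb at 1.47, Flt1 at 1.72, Pdgfrl at 2.26 and Furin at 0.82.

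The other lists placed the members among genes of related roles. None of 3 tested genes of the lipoprotein lipase axis, the target of Angptl4, was called: Lpl differed by -1.12 (limma, adjusted p = 0.394), Gpihbp1 by 0.06 (0.778) and Lmf1 by -0.03 (0.892), with no unadjusted p under 0.05. Of 8 tested PPAR targets, a group to which Angptl4 also belongs, none was called, with Cd36 at -1.01 (0.0837), Pdk4 at 0.92 (0.0948) and Ehhadh at -0.29 (0.433), and with an unadjusted p under 0.05 for Pdk4 and Cd36 alone. The median over those 8 was -0.18.

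Vegfa, Angptl4 and Pdgfb are also known as genes of the hypoxia response. Of 24 other genes of that response, 1 was called, Ddit4, an inhibitor of mTORC1 (0.73, limma, adjusted p = 0.0377; 0.47 and 0.0814 with scaling to the 75th percentile), and the median was -0.03. Ankrd37 (-0.91, 0.263) and Ak4 (-0.83, 0.548) had the largest other differences in size. Without TGF-β1 replicate 3, 1 of the 24 was called higher and 6 were called lower, with a median of -0.25. Over all genes, 9.08% were called higher there and 6.27% lower. The part of the hypoxia response in the differences of the members was not tested.

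Of 7 tested other angiogenic factors none was called, with Apln at -0.96 (0.159), Ptn at 0.68 (0.321) and Efna1 at 0.65 (0.0892), and with 3 unadjusted p under 0.05. Of 7 tested angiogenesis inhibitors none was called either, with Thbs1 at 1.29 (0.106), Col18a1, whose product is the source of endostatin, at 1.28 (0.132) and Adamts1 at 0.62 (0.170), and with 5 unadjusted p under 0.05. Over all genes, 22.2% had an unadjusted p under 0.05. The medians were 0.44 for the other factors and 0.49 for the inhibitors. Without TGF-β1 replicate 3 the calls were 2 higher and 1 lower for the other factors and 3 higher for the inhibitors. Of all genes, 9.08% were called higher there and 6.27% lower. Of 7 genes of the TGF-β response, 4 were called higher (Pmepa1, Tgif1, Tgfbi and Ltbp2), with a median of 1.31.

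The cultures carried the labelled epithelium, with 11 of 13 airway epithelial markers tested, among them Epcam, Cdh1, Krt8 and Krt18 well above background on every array, while Muc5ac and Sftpc were so on none. Of the 11, 1 was called, Foxj1 of ciliated cells (higher by 1.47, limma, adjusted p = 0.00238), and 3 higher and 1 lower had an unadjusted p under 0.05. Scgb1a1 of club cells lay at 7.77 to 10.83 in the controls and 7.00 to 7.57 with TGF-β1 (difference -2.27, adjusted p = 0.158), and Krt5 of basal cells differed by 1.37 with overlap (0.179). Signals were summed in each list over tested and untested genes. The log2 of this sum was 17.81 to 17.92 in the controls and 17.84 to 18.32 with TGF-β1. Of 8 endothelial markers 4 were tested and none was called or had an unadjusted p under 0.05. Pecam1 lay at 6.03 to 6.32, and 3 of the list were well above background on no array. The log2 of the signals summed over all 8, tested or not, was 6.98 to 7.30 in controls and 7.08 to 7.25 with TGF-β1. Of 7 fibroblast markers 3 were tested and 2 were called higher, Col1a1 (at least 2.59-fold, limma, adjusted p = 0.0091) and Col1a2 (at least 2.38-fold, 0.0162), which were tested only through the TGF-β1 arrays in which they were high, no control array being well above background, and whose calls are given as a description; Dcn differed by 1.00 (0.273), the summed log2 signal was 8.90 to 9.07 in the controls and 9.20 to 11.16 with TGF-β1, and Col3a1, Lum, Tcf21 and Postn were well above background on no array. Of 6 markers of pericytes and smooth muscle 3 were tested and none was called, with 1 unadjusted p under 0.05 (summed 13.82 to 14.26 against 13.90 to 14.55). Of 7 leukocyte markers 4 were tested and none was called, with 2 unadjusted p under 0.05, both higher (13.37 to 13.59 against 13.73 to 13.85, and Ptprc and Lyz2 not bright enough to be tested). The part of the epithelial, fibroblast and leukocyte markers in the differences of the members was not tested.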

How the data were processed

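The deposited files hold, per the file headers, the intensity of each spot on a linear scale, which the authors obtained with Agilent Feature Extraction 11.0.1.1 after background subtraction, with no normalisation between arrays. Control spots and spots flagged as uneven or as outliers were left out, which kept 56599 of 56605 probes. Accessions were matched to RefSeq symbols (GRCm38.p6) for 32991 probes. Log2 signals were normalised by quantiles as in the methods. A probe was tested when well above background on at least 3 of 6 arrays, and the probe with the highest mean signal stood for a gene. Groups were compared with limma 3.58.1 in R 4.3.3 without covariates, with Benjamini-Hochberg adjustment over 14345 genes. The pipeline was tested on simulated data. The number of arrays limits the precision.

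Named were all members, their other family genes and receptors, and of every other list the genes called and the 3 largest differences. Some genes of the lists are not reported here by name. The members and lists were chosen with earlier results of these data known. Alternatives covered scaling, background, filter, probe choice, variance prior, array weights, the replicate block, slide row, the methods' t-test, a 2-fold limit and leaving out each array. The numbers 1 to 3 were not used as pairs, since the deviations of same-numbered arrays correlated at -0.01, 0.33 and -0.05.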

Additional observations from a re-analysis of the deposited data

How the results depend on the processing

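The count of members called higher, 1 with the settings of the report, is given with the share of all genes called in either direction: 3 with normexp correction (3.00%), 0 without a filter on brightness (0.323%), 2 with well above background required on all 6 arrays (2.13%), 2 with a trended robust prior (3.53%), 4 with array weights (34.7%), 4 in slide row 1 (26.8%) and 0 to 4 with an array left out (0.39% to 15.4%); the methods' t-test gave 4 unadjusted (17.1%) and 0 after Benjamini-Hochberg (0.0627%). The count called lower, also 1, was 0 with normexp correction, without the filter, with all 6 arrays required and with the adjusted t-test, and 0 to 1 with an array left out. The replicate block, with the replicate number as pairing, gave 0 and 0: Angpt1 stayed at -2.0 (adjusted p = 0.0602) and Pdgfb at 1.47 (0.103), and 0.725% of all genes were called.

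Angpt1 lost its call with normexp correction (-0.47), without the filter (-2.0, adjusted p = 0.0639) and in the adjusted t-test (0.141), and ranged from -2.16 to -1.81 with an array left out. Pdgfb lost it without the filter (1.47, 0.103) and in the adjusted t-test (0.183), with 1.34 to 1.67. Other members passed the threshold under some settings: Angptl4 with normexp correction (0.95), array weights (1.51), row 1 (1.61) and the unadjusted t-test (1.17), with 0.95 to 1.45; Pdgfa with weights (0.52), row 1 (0.56) and the unadjusted t-test (0.44), with 0.37 to 0.51; Pdgfc with normexp correction (0.78), all 6 arrays required, the trended prior or the unadjusted t-test (0.83), weights (1.00) and row 1 (1.04), with 0.73 to 0.95. Differences near 0 turned sign: Vegfa with 75th percentile scaling (-0.18), weights (-0.055) and an array left out (-0.26 to 0.28), Vegfc in row 1 (0.037) and with an array left out (-0.30 to 0.21), and Pgf with scaling (0.077), weights (0.14) and an array left out (-0.35 to 0.24). The cause was not tested.

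With 75th percentile scaling, processing and hypoxia genes had 0 calls, and medians were -0.19 (lipase axis), 0.25 (other angiogenic factors), 0.30 (inhibitors) and 1.08 (TGF-β response). With normexp correction, calls were 2 (processing, median 0.44), 1 (inhibitors) and 1 (PPAR targets). With an array left out, 0.39% to 15.4% of all genes were called. Calls were then 0 to 3 for processing (median 0.44 to 0.76), other angiogenic factors (0.25 to 0.56) and inhibitors. They were 0 to 7 for hypoxia and 0 to 1 for PPAR targets and the rest of the families (median -0.49 to -0.068). The lipase axis median was -0.073 to 0.027. Of all calls 80.1% were higher, against 48.3% with weights, 51.6% in row 1, 53.2% in the unadjusted t-test, 63.9% without control 3 and 59.1% without TGF-β1 replicate 3. Dim probes (Angpt1, Angptl2, Pgf) limit what can be said of those genes.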
